A study of Rattus norvegicus with 9 samples.

Results

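The Exo group was compared with the Con group. In the Exo group neural stem cells (NSCs) had been given exosomes of bone marrow mesenchymal stem cells (BMSCs) without Wnt5a overexpression. In the Con group the NSCs had differentiation medium and no exosomes. All genes that passed a low-count filter on these 6 libraries were taken, which kept 15070 of the 23953 genes in the count table. Both groups were rat cultures labelled as NSCs from rat spinal cord, and each had 3 libraries. A further group of 3 libraries received exosomes of Wnt5a-overexpressing BMSCs (the pLV-Exo-Wnt5a group), and its levels are set beside the others without a test. The cultures behind all 9 libraries shared the differentiation medium, which held serum, B-27, N-2 and FGF. The study's methods describe low-passage NSCs of neonatal rats and BMSCs of Sprague-Dawley rats, and state that the exosomes called Exo came from BMSCs carrying the empty lentiviral vector, whereas the labels name BMSC-Exos only. The labels give no age, no strain, no dose and no time of collection, and nothing in them says that the replicates were separate cultures, so p-values measure the spread between these libraries, which may be technical. The labels assign all 9 samples to 1 batch.

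Exosomes are small membrane vesicles that cells release and that carry proteins, lipids and RNAs to other cells. NSCs placed in differentiation medium leave the cycling progenitor state and give rise to neurons, astrocytes and oligodendrocytes, and cultures made from neonatal nervous tissue usually keep some microglia, the resident macrophages. Microglia are the main source of C1q in nervous tissue, the complement component that opens the classical cascade and tags synapses and debris for uptake. The comparison asks what the vesicle preparation alone adds to the medium, without Wnt5a overexpression in the BMSCs.

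The 6 libraries held the RNAs of neurons, astrocytes and oligodendrocyte precursors. Tubb3, a neuronal tubulin, was at 1790 ± 181 CPM (counts scaled to a common library total) in the Con and 1770 ± 208 CPM in the Exo libraries (SD, n = 3 each), Gfap, the astrocyte filament, at 2540 ± 446 and 2230 ± 38.0 CPM, and Olig2, a factor of the oligodendrocyte lineage, at 532 ± 29.1 and 497 ± 37.8 CPM. Mki67, a mark of cycling cells, was at 1.02 ± 0.239 and 0.861 ± 0.215 CPM, while the NSC factor Sox2 was at 461 ± 53.6 and 557 ± 115 CPM. The label of spinal cord was not borne out by the regional genes. Of 26 Hox genes of the spinal cord, 9 were in the table and 0 passed the filter, with at most 2 counts in any of the 6 libraries. All 22 forebrain transcription factors passed it, among them Tbr1, a cortical neuron factor, at 60.1 to 66.3 CPM in the Con and 77.5 to 93.9 CPM in the Exo libraries. Genes were named by mouse symbols with mouse gene numbers although the cells were labelled as rat.

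Total counts ran from 32765138 to 39929409 per library, and the 3 counts that a count of 0 still allows were equal to 0.0751 to 0.0916 CPM (counting error only). Replicates of a group were not copies of each other (chi-square divided by its degrees of freedom, 7.33 to 48.4). Con replicate 1 stood apart. Its mean distance to the other 5 libraries on log2 CPM was 73.5, against 55.6 to 61.1 for the others, it had the highest share of counts in ribosomal protein genes (4.32%, against 3.51% to 3.84%), and it had the lowest share in mitochondrially encoded genes (0.722%, against 0.828% to 1.13%). Libraries of different groups lay 62.2 apart on average and those of a group 56.7, or 54.3 and 51.5 without Con replicate 1.

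By edgeR's quasi-likelihood test, 1 gene passed the study's limits (a Q below 0.05 together with more than a 2-fold difference), which fell in the Exo group (0.00664% of the 15070 genes tested). The study itself used DESeq2, by which 32 genes passed here on the 6 libraries without the low-count filter. By edgeR at an unadjusted p under 0.05, with no fold limit, 2249 genes were counted. The study set looser limits for the pLV-Exo-Wnt5a against the Exo group, an unadjusted p below 0.05 with log2FC beyond 0.58 in either direction. At these looser limits 537 genes were higher in the Exo than in the Con group (3.56% of all tested) and 137 lower (0.909%). Of these, 79.7% were higher. The log2FC over all genes was even, with 50.3% above 0 and 49.7% below. Without Con replicate 1, on 15454 genes, 243 genes were higher (1.57%) and 111 lower (0.718%), of which 187 and 76 were among those of the 6-library fit, the share that was higher came to 68.6%, and 49.8% of all log2FC were above 0. By limma voom with a weight for each library, which gave Con replicate 1 a weight of 0.236, 263 genes were higher (1.75%) and 147 lower (0.975%) at Q alone. Without Con replicate 3, 138 genes passed Q and fold limits, of which 131 were higher. Without Exo replicate 1, 259 genes were higher and 166 lower at the looser limits (60.9% higher), so the size and the tilt of the list depended on which libraries were kept. The plot of log2FC against p shows most microglial genes on the lower side.

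**Figure D1:**
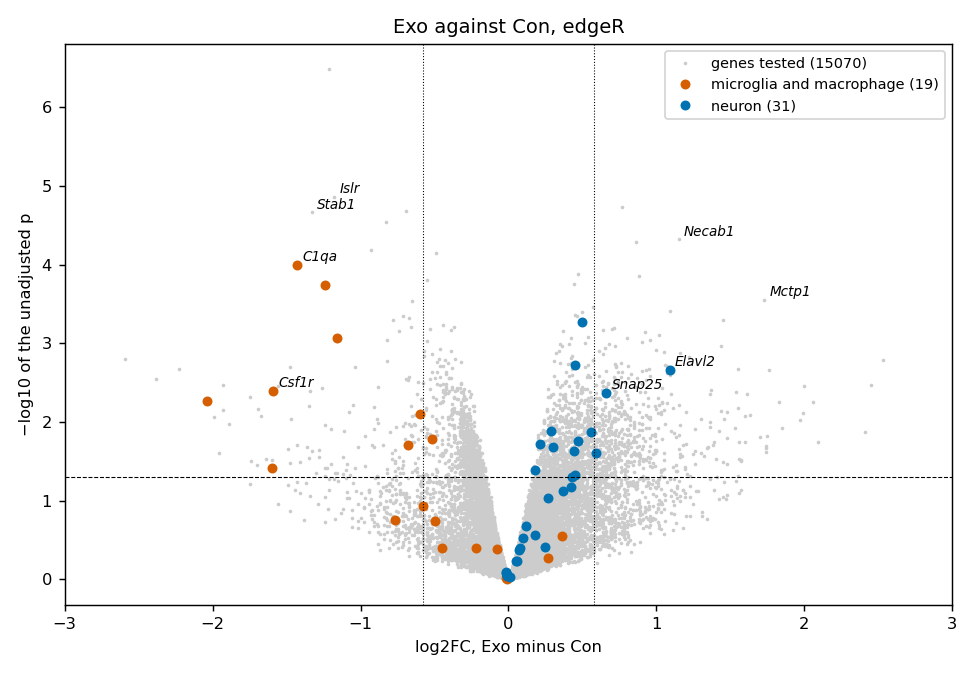
Each dot is 1 of the 15070 genes tested, with log2FC (Exo minus Con) on the x axis and −log10 of edgeR's unadjusted p on the y axis. Dashed and dotted lines mark the looser limits. Orange dots are 19 microglia and macrophage genes, 17 of them below 0, and blue dots are 31 neuron genes, 26 of them above 0.

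The 537 higher genes were most extreme in replicate 1 of each group. Con replicate 1 was the lowest of the 6 libraries in 431 of them (80.3%, against 34.6% of all genes tested). Exo replicate 1 was the highest in 407 (75.8%, against 24.6% of all). Both held in 342 (63.7%, against 16.4% of all). Choosing genes that were higher in the Exo group by itself favours a Con library as the lowest and an Exo library as the highest, so these shares describe the genes and are no test. The median deviation of these genes from their 6-library mean was −0.81, −0.32 and −0.01 on the log2 scale in Con replicates 1, 2 and 3 and 0.65, 0.38 and 0.21 in the Exo replicates, so Con replicate 3 sat near the middle. The 137 lower genes were more even, with medians of 0.57, 0.40 and 0.34 in the Con and −0.38, −0.42 and −0.42 in the Exo replicates. The Exo and Con libraries did not overlap in 124 of the 137 lower and in 369 of the 537 higher genes, a separation that the choice of these genes largely fixes and that was met by 1864 (12.4%) and 1647 (10.9%) of all genes tested. The part of Con replicate 1 in the higher genes was not tested beyond leaving it out.

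Islr (26968) and Stab1 (192187) were among the genes that were lower, and neither passed Q by edgeR on the 6 libraries, whereas both did by DESeq2 (Q = 9.23e-10 and 4.39e-07) and by limma voom with sample weights (Q = 0.00125 and 0.0122). Islr encodes a secreted leucine-rich repeat protein of mesenchymal cells and was at 35.6, 31.8 and 35.7 CPM in the Con against 11.9, 17.1 and 16.7 CPM in the Exo replicates (log2FC −1.18, SE 0.15, Q = 0.0655 by edgeR). Without Con replicate 1 it passed both limits, with log2FC −1.15 and Q = 0.0337. Stab1, a scavenger receptor of macrophages and sinusoidal endothelium, was at 8.80, 6.78 and 8.85 CPM against 3.13, 3.12 and 3.51 CPM (log2FC −1.33, SE 0.18, Q = 0.0655, and 0.0648 without Con replicate 1). In both genes the groups were well apart, and the pLV-Exo-Wnt5a means, 25.9 and 5.86 CPM, fell between them.

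The 3 genes of the C1q chains were lower together. C1qa (12259) was at 3.32, 4.13 and 3.77 CPM in the Con and 1.68, 1.26 and 1.24 CPM in the Exo replicates (log2FC −1.43, SE 0.23, Q = 0.137 by edgeR). C1qb (12260) was at 4.83, 3.93 and 4.44 CPM against 1.78, 1.63 and 2.20 CPM (log2FC −1.24, SE 0.22, Q = 0.172). C1qc (12262) was at 4.88, 4.80 and 3.59 CPM against 2.43, 1.46 and 2.12 CPM (log2FC −1.16, SE 0.25, Q = 0.265). No Exo library reached the lowest Con library in any of these genes, and no Q passed the threshold in edgeR. By the weighted limma voom fit the Q values were 0.00764, 0.0217 and 0.0213. The pLV-Exo-Wnt5a means were 3.39, 3.77 and 4.27 CPM, close to those of the Con group (3.74, 4.40 and 4.42 CPM). The genes lie next to each other on rat chromosome 5 in the annotation GRCr8.

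Promoter windows are shown for C1qa and C1qb, as neighbours that were lower together, and for Stab1, a macrophage gene elsewhere in the genome. They run from 250 bases before to 50 after the gene start in RefSeq's GRCr8 and were matched by symbol, which found 4 of the 5 genes looked up (C1qa, C1qb, Stab1 and Islr, not C1qc). Each is written 5′ to 3′ on the strand of its gene, and capitals mark GGAAGT or its reverse complement ACTTCC, a core of the kind bound by ETS factors such as PU.1, the product of Spi1. The letters were chosen after the sequences had been seen.
C1qa (chr5:154419884-154420183, minus strand): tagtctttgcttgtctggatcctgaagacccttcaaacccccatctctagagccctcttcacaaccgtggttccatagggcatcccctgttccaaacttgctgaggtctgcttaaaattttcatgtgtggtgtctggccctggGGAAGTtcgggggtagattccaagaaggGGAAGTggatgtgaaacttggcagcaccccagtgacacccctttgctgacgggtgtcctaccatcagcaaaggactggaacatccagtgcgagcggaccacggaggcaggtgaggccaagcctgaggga
C1qb (chr5:154407778-154408077, minus strand): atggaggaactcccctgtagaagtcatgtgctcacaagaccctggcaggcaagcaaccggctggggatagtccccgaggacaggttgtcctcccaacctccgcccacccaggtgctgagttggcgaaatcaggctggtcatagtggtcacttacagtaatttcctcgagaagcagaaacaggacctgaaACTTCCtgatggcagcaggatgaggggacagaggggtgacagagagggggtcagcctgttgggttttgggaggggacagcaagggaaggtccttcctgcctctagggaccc
Stab1 (chr16:6367310-6367609, minus strand): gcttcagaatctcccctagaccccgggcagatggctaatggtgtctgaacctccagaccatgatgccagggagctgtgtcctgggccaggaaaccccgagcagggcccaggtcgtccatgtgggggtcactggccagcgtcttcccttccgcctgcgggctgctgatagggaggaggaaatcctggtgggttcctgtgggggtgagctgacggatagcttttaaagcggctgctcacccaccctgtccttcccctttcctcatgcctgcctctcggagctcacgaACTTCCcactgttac
The motif was found at bases 144 to 149 and 172 to 177 of the C1qa window, at 190 to 195 of C1qb and at 286 to 291 of Stab1, in the last case after the start of the gene. It was absent from the Islr window. Of the 33469 RefSeq promoter windows of this length, 7556 (22.6%) hold it on either strand, so the matches describe the letters and locate no bound factor. Spi1 itself was at 1.22, 0.668 and 0.456 CPM in the Con and 0.749, 0.396 and 0.253 CPM in the Exo libraries, which overlap.

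The microglia and macrophage list had the lowest median of the gene lists, in the 6-library fit and without Con replicate 1. Of its 24 genes 19 passed the filter, 17 of them were lower, 8 of those at the looser limits (0.909% of all genes), and the median log2FC was −0.58 (−0.68 without Con replicate 1), against 0.00 over all genes. In 9 of the 19 no Exo library reached any Con library (12.4% of all genes). Members at low counts can pass the filter through the Con libraries alone, so the 12 members with a mean of at least 1 CPM over the 6 libraries were also taken, of which 11 were lower, 6 at the looser limits, with a median of −0.59. Here less RNA per microglial cell and fewer such cells cannot be told apart.

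Csf1r, the receptor that microglia need to survive, was at 1.89, 1.36 and 2.86 CPM in the Con and 0.749, 0.322 and 0.960 CPM in the Exo replicates (log2FC −1.59, SE 0.43, Q = 0.265 by edgeR). Cx3cr1, the microglial fractalkine receptor, was at 1.04, 0.539 and 1.46 CPM against 0.0775, 0.346 and 0.303 CPM (log2FC −2.04, SE 0.58, Q = 0.265), with 3 counts in its lowest library. Lyz2, a macrophage lysozyme, was at 7.21, 8.47 and 10.1 CPM against 5.09, 6.58 and 5.35 CPM (log2FC −0.60). Fcrl2, an Fc receptor-like gene outside the list, was at 7.11, 4.37 and 4.75 CPM against 3.15, 2.75 and 2.05 CPM (log2FC −1.04, SE 0.25, Q = 0.265). Each of these genes was separated between the groups, and none passed Q in edgeR.

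Not every member was apart between the groups. Aif1 (Iba1) and Trem2 overlapped between them, with means of 0.546 and 0.539 and of 0.543 and 0.656 CPM. Aif1 counts among the 17 lower members at a log2FC of only −0.02. P2ry12, which marks resting microglia, did not pass the filter and had at most 12 counts in any of the 6 libraries. Summed over the 19 genes, the level was 95.2 to 97.1 CPM in the Con, 73.1 to 81.3 CPM in the Exo and 95.2 to 104 CPM in the pLV-Exo-Wnt5a libraries. In this sum the Exo libraries were the low ones, and the pLV-Exo-Wnt5a libraries lay near the Con libraries or above them. Con replicate 1 was not apart from the other Con libraries. Single genes could differ from the sum. Cx3cr1 was at 0.278, 0.301 and 0.557 CPM in the pLV-Exo-Wnt5a libraries, most of them at the Exo level.

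**Figure D2:**
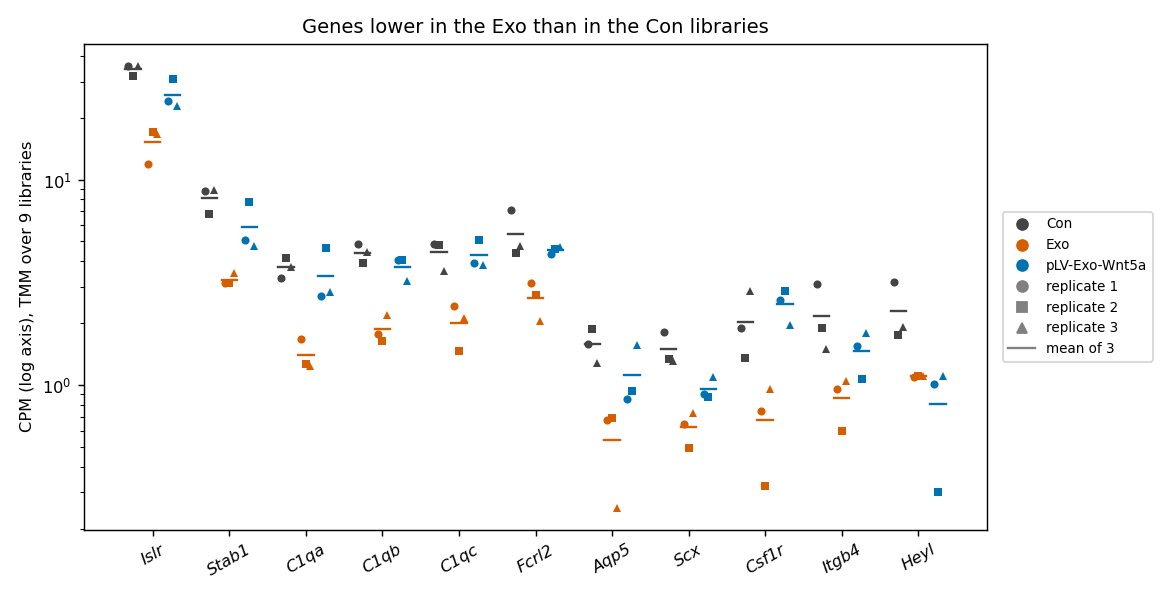
CPM (log y axis, TMM over 9 libraries) of 11 genes named as lower in the Exo group, ordered by p, with 1 point per library in each of the 3 groups and bars at the mean of 3. Exo points lie below all Con points for every gene shown, by the rule that chose them, and the pLV-Exo-Wnt5a mean lies above the Exo mean in 10 of the 11.

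The rest of the genes named as lower were at low levels. Aqp5, a water channel, was at 1.28 to 1.87 CPM in the Con and 0.253 to 0.693 CPM in the Exo libraries (log2FC −1.56, SE 0.41). Scx, the tendon factor scleraxis, was at 1.31 to 1.82 and 0.495 to 0.732 CPM (log2FC −1.26). Itgb4, an integrin of epithelia and Schwann cells, was at 1.49 to 3.11 and 0.594 to 1.04 CPM (log2FC −1.34), and Heyl, a Notch target repressor, at 1.75 to 3.17 and 1.09 to 1.11 CPM (log2FC −1.05). Con replicate 1 was the highest library in Scx, Itgb4 and Heyl, whose log2FC was −1.09, −0.99 and −0.74 without it. None of the 4 passed Q (0.265 each by edgeR).

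Among the higher genes, 39 met the naming limits, against 14 lower ones, and the 12 with the smallest p are plotted by library. Necab1, a calcium-binding protein of some neurons, led them at 3.79, 3.62 and 4.84 CPM in the Con and 9.69, 9.11 and 8.49 CPM in the Exo replicates (log2FC 1.15, SE 0.17, Q = 0.0979 by edgeR, and 1.10 with Q = 0.0799 without Con replicate 1). Mctp1, a calcium-binding membrane protein, was at 0.389, 0.591 and 0.609 CPM against 1.86, 1.73 and 1.72 CPM (log2FC 1.73, SE 0.32, Q = 0.244). In both genes the Exo libraries lay close together and well above the Con libraries.

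Edil3, a secreted integrin ligand, was at 3.37, 5.19 and 5.99 CPM in the Con and 11, 11.1 and 9.09 CPM in the Exo replicates (log2FC 1.09, SE 0.21, Q = 0.265 by edgeR). Gabra4, a GABA-A receptor subunit, was at 2.28, 4.21 and 4.53 CPM against 7.88, 7.45 and 7.5 CPM (log2FC 1.05, SE 0.24, Q = 0.265, and 0.79 without Con replicate 1). Cav2, the gene of caveolin-2, was at 2.08, 1.87 and 3.44 CPM against 9.20, 5.07 and 5.93 CPM (log2FC 1.45, SE 0.29). Pcdh20, a protocadherin, was at 0.571 to 0.847 and 1.46 to 2.27 CPM (log2FC 1.44, SE 0.32).

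The other 6 were Smim15, the chromatin gene Dek, Sh3bgrl, Tmem47, Hmgcll1 and Hnmt, which inactivates histamine, with log2FC from 1.02 to 1.55 and Q = 0.265 each. Exo replicate 1 was the highest library in 10 of the 12 genes and Con replicate 1 the lowest in 8. None passed Q in edgeR. By DESeq2 all but Mctp1, which had no Q there, passed (Q from 4.45e-06 in Necab1 to 0.0393 in Hnmt). By the weighted limma voom fit all but Hmgcll1 and Hnmt passed (Q = 0.0573 and 0.0676 in these, 0.00404 in Necab1). The pLV-Exo-Wnt5a mean lay above the Con and below the Exo mean in all 12.

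**Figure D3:**
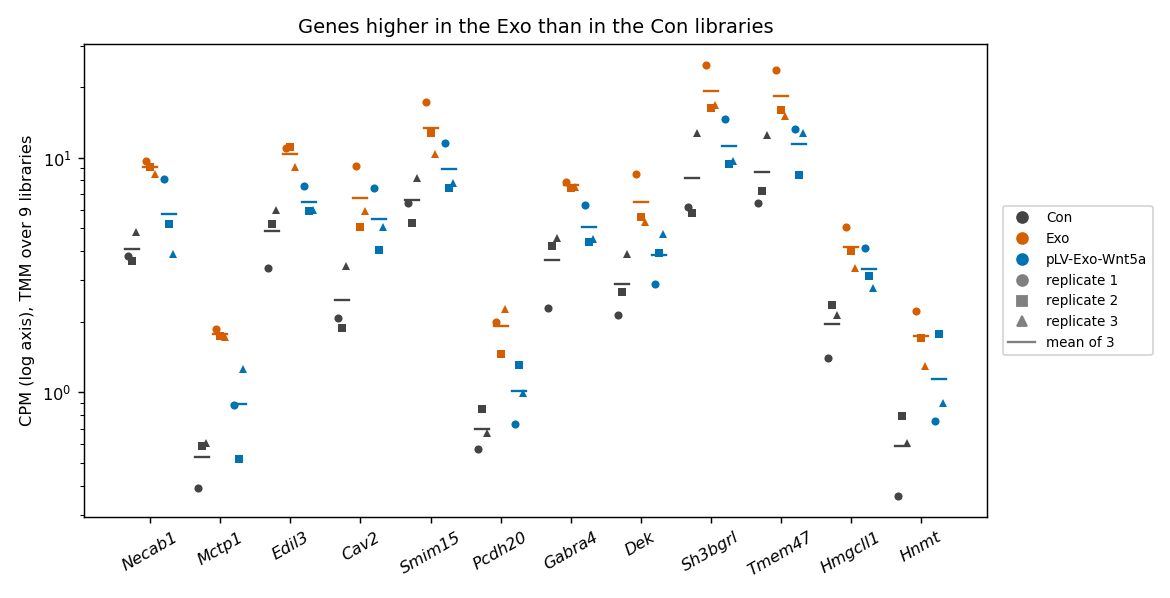
CPM (log y axis, TMM over 9 libraries) of the 12 genes named as higher in the Exo group, ordered by p, with 1 point per library in each of the 3 groups, marker shapes for the replicates and bars at the mean of 3. Exo points lie above all Con points by the rule that chose the genes, and the circles of replicate 1 are the highest Exo point in 10 of the 12.

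Without Con replicate 1, 7 genes passed Q, and those described here were picked out after their values had been seen. Islr, Tead2, Inf2 and Dkk3 were lower. Tead2, a DNA-binding partner of YAP, was at 61.6, 57.6 and 53.3 CPM in the Con and 36.8, 35.9 and 35.2 CPM in the Exo replicates (log2FC −0.69, Q = 0.0655 by edgeR with 6 libraries and 0.0245 without Con replicate 1). Inf2, an actin-severing formin, was at 88.5, 75.1 and 68.8 CPM against 40, 44.1 and 47.3 CPM (log2FC −0.83, Q = 0.0723 and 0.0245). Dkk3, a secreted protein of the Dickkopf family, was at 214, 209 and 232 CPM against 167, 151 and 150 CPM (log2FC −0.49, Q = 0.106 and 0.035). The groups were apart in all of these.

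Ctxnd1 and Ccn3 were higher among the same 7. Ctxnd1, a gene with a cortexin domain, was at 21.9, 19.5 and 20.1 CPM in the Con and 36.7, 33.3 and 36.0 CPM in the Exo replicates (log2FC 0.77, Q = 0.0655 by edgeR with 6 libraries and 0.0189 without Con replicate 1). Ccn3, a matricellular protein, was at 14.4, 17.6 and 20 CPM against 32.6, 30.2 and 32.1 CPM (log2FC 0.86, Q = 0.0979 and 0.0337).

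Neuronal genes were on the higher side, by small amounts. Of 31 neuron genes 26 were higher, 3 at the looser limits (3.56% of all genes), and the median log2FC was 0.25. Without Con replicate 1 all 31 were higher, 1 at those limits (1.57% of all genes), with a median of 0.17. Snap25, a SNARE of transmitter release, was at 22.7, 34.8 and 40.9 CPM in the Con and 53.6, 56.3 and 46.1 CPM in the Exo replicates (log2FC 0.66, SE 0.18, Q = 0.265 by edgeR, and log2FC 0.45 without Con replicate 1). Elavl2, a neuronal RNA-binding protein, was at 3.87, 5.93 and 8.61 CPM against 14.6, 14.9 and 9.82 CPM (log2FC 1.09, SE 0.27), and Nefl, the light neurofilament, at 35.9, 45.5 and 46.9 CPM against 60.1, 58.3 and 57.3 CPM (log2FC 0.45, SE 0.11). In each of the 3 the groups were separated, with Con replicate 1 the lowest library.

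Receptor and channel genes leaned the same way and more on Con replicate 1. Of 37 glutamate and GABA receptor genes 30 were higher, 5 at the looser limits (3.56% of all genes), with a median log2FC of 0.32, or 3 at the looser limits (1.57% of all genes) and 0.17 without that library. Gria4 and Gria3, AMPA receptor subunits, were at 3.27 to 4.63 and 6.04 to 7.85 CPM and at 1.69 to 2.77 and 3.64 to 4.81 CPM in the Con and Exo libraries (log2FC 0.77 and 0.89). Of 39 neuronal potassium, sodium and calcium channel genes 32 were higher, with a median of 0.24, or 0.12 without Con replicate 1 and 0.35 without Con replicate 3. Cacna2d1, a calcium channel subunit, was at 4.57 to 6.76 and 7.17 to 11.1 CPM (log2FC 0.79). All 3 genes had Q = 0.265 or above by edgeR.

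Of 38 genes of the synaptic vesicle and its release 30 were higher, 3 at the looser limits (3.56% of all genes), or 0 without Con replicate 1 (1.57%), with a median of 0.09 that ran from 0.05 without Exo replicate 2 to 0.18 without Exo replicate 1. Pclo, a scaffold of the active zone, was at 25.1, 30.1 and 29.2 CPM in the Con and 45.9, 40.8 and 39.0 CPM in the Exo replicates (log2FC 0.57, SE 0.11, Q = 0.265 by edgeR). Gad1, the GABA-making enzyme, was at 97.2, 117 and 122 CPM against 135, 148 and 144 CPM (log2FC 0.34, SE 0.09). The median deviations of the receptor list by library were −0.40, −0.07 and 0.02 in the Con and 0.09, 0.17 and 0.12 in the Exo replicates, which shows how far Con replicate 1 set it. A list of 30 long chromatin and splicing genes, taken because long transcripts are sensitive to RNA quality, was at −0.33 in Con replicate 1, while the other 5 libraries ran from 0.00 to 0.16. Its part in the neuronal lists was not tested.

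**Figure D4:**
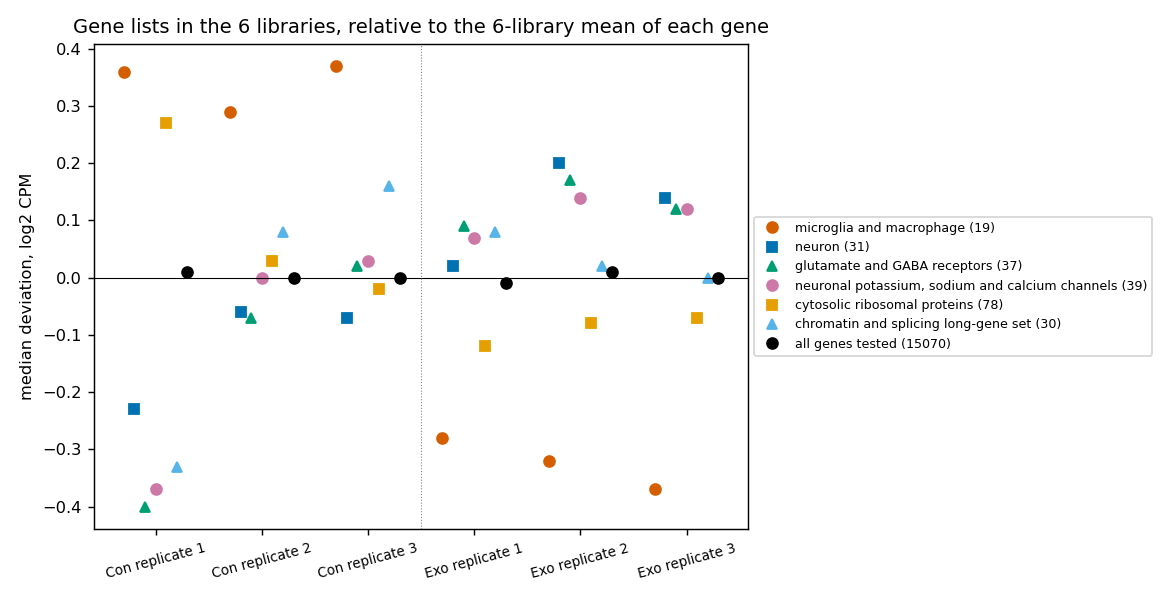
Median deviation (y axis, log2 CPM) of the genes of each list from their own mean over the 6 libraries, for the 3 Con and 3 Exo libraries on the x axis, with 1 point per list and library and the number of genes in brackets. The microglia list is at 0.29 to 0.37 in the Con and −0.28 to −0.37 in the Exo libraries, whereas the receptor, channel and long-gene lists are lowest in Con replicate 1, at −0.33 to −0.40.

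None of the markers of neurons and astrocytes that the study measured by other means passed Q in edgeR. In NSC cultures the study reported more NeuN and less GFAP with exosomes, by staining, RT-qPCR and Western blot. MAP2 and GAP43 it measured as proteins in the spinal cord of injured rats. The values here are RNA of cultures at a time not given, so they do not repeat those measures. Rbfox3 (NeuN) was at 86.9 ± 1.30 CPM in the Con and 87.8 ± 6.76 CPM in the Exo libraries (log2FC 0.01, SE 0.09). Tubb3 had a log2FC of −0.02 (SE 0.12). Map2, a dendritic protein, was at 92.5, 150 and 185 CPM against 227, 186 and 175 CPM, which overlap (log2FC 0.45, SE 0.20, and 0.22 without Con replicate 1). Gap43, a growth-cone protein, was at 330, 386 and 389 CPM against 393, 511 and 461 CPM (log2FC 0.30, SE 0.11). Gfap was at 3050, 2260 and 2300 CPM against 2220, 2200 and 2280 CPM, so its log2FC of −0.19 (SE 0.12) became −0.04 without Con replicate 1.

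Of 26 astrocyte genes 13 were higher and 13 lower, with a median of 0.01. Without Con replicate 1, 17 of the 26 were higher, with a median of 0.05, and the median was 0.07 without Exo replicate 3. Cpe, a prohormone carboxypeptidase, was at 917 to 1000 CPM in the Con and 1190 to 1280 CPM in the Exo libraries (log2FC 0.35, SE 0.08, Q = 0.265 by edgeR), and Slc7a10, an astrocyte serine transporter, at 5.50 to 5.66 and 3.37 to 4.0 CPM (log2FC −0.62, SE 0.17). Of 25 reactive astrocyte genes 17 were lower, with a median of −0.21 that was −0.10 without Con replicate 1 and −0.33 without Con replicate 3. S1pr3, a sphingosine-1-phosphate receptor, was at 10.9 to 14.6 and 7.70 to 8.97 CPM (log2FC −0.61), and C4b, a complement component, at 31.9 to 43.1 and 26.3 to 27.1 CPM (log2FC −0.45).

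Of 24 NSC genes 18 were lower, 0 at the looser limits, with a median of −0.09 (−0.15 without Exo replicate 1 and −0.05 without Exo replicate 3). Nes, the nestin gene, was at 87.2, 120 and 111 CPM in the Con and 96.8, 80.3 and 78.4 CPM in the Exo replicates (log2FC −0.33, SE 0.12). Vim was at 1570 to 1980 and 1230 to 1490 CPM (log2FC −0.37), and Nr2e1, the stem cell factor TLX, at 50.4 to 52.7 and 42.6 to 44.7 CPM (log2FC −0.27, SE 0.08). Of 43 cell cycle genes 31 were lower, 0 at the looser limits, with a median of −0.15 that was −0.04 without Exo replicate 3 and −0.22 without Exo replicate 1. Exo replicate 1 stood with the Con libraries there, at 0.16 against 0.04 to 0.15 in these and −0.13 and −0.22 in the other Exo libraries. Of 19 oligodendrocyte genes 13 were lower, with a median of −0.11 (−0.07 without Con replicate 1). The myelin genes Mbp, at 155 to 168 and 100 to 129 CPM (log2FC −0.44, SE 0.11), and Mag, at 13.4 to 17.7 and 8.09 to 11.2 CPM (log2FC −0.67, SE 0.17), were lower, and Ugt8a, which makes a myelin lipid, was higher, at 6.49 to 11.1 and 11.4 to 16.9 CPM (log2FC 0.68, SE 0.21). All had Q = 0.265 or above by edgeR.

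NF-κB signalling, the pathway named in the study's title, was described by a list of its subunits and regulators and a list of its target genes. The study measured the phosphorylation of P65 and IκBα by Western blot, which RNA levels do not show. Of 27 subunits and regulators 20 were lower, 0 at the looser limits, with a median log2FC of −0.13 (−0.07 without Con replicate 1). Rela was at 74.8, 64.9 and 62.7 CPM in the Con and 56.3, 56.6 and 59.9 CPM in the Exo replicates (log2FC −0.24, SE 0.10, Q = 0.302 by edgeR). Nfkb2 was at 19.1, 18.4 and 15.3 CPM against 12.9 CPM in each Exo replicate (log2FC −0.45, SE 0.13, Q = 0.265). Nfkbia, which encodes the inhibitor IκBα and is a target of the pathway, was at 25.4 to 32.3 and 21.5 to 24.9 CPM (log2FC −0.27, SE 0.13). Of 19 tested target genes 14 were lower, with a median of −0.18, or −0.06 without Con replicate 1 and 0.01 with limma voom.

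The cytokine and polarisation markers Il6, Il1b, Il10, Tnf and Nos2 did not pass the filter, with at most 7 counts in any of the 6 libraries, so a difference was not detectable at this depth. Tgfb1 was at 4.13, 2.26 and 2.19 CPM in the Con and 1.37, 1.86 and 1.84 CPM in the Exo replicates (log2FC −0.77, SE 0.31, Q = 0.302 by edgeR), and its log2FC was −0.40 without Con replicate 1. Of 31 interferon response genes 12 were higher and 19 lower, with 2 at the looser limits in each direction (3.56% and 0.909% of all genes) and a median of −0.03. Without Con replicate 1, 16 of the 31 were higher, with a median of 0.00. At those limits there was then 1 in each direction (1.57% and 0.718% of all genes). Irgm2, an interferon-induced GTPase, was at 0.649 to 1.25 CPM in the Con and 1.49 to 1.86 CPM in the Exo libraries (log2FC 0.83, SE 0.32), and Gbp7, a guanylate-binding protein gene, at 0 to 0.154 and 0.278 to 0.62 CPM, of which the Con values lie about the lowest level that could be measured. Psmb8, an immunoproteasome subunit, was at 3.75 to 4.31 and 1.89 to 3.23 CPM (log2FC −0.76, SE 0.25), while its pLV-Exo-Wnt5a mean was 6.04 CPM.

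Of 28 Notch genes 21 were lower and 1 of them met the looser limits (0.909% of all genes), with a median of −0.13 (−0.08 without Con replicate 1). In 12 of the 28 no Exo library reached any Con library (12.4% of all genes). Notch3 was at 249, 195 and 203 CPM in the Con and 168, 140 and 163 CPM in the Exo replicates (log2FC −0.47, SE 0.11, Q = 0.265 by edgeR). Hes5, a target of Notch in NSCs, was at 185, 160 and 159 CPM against 140, 133 and 138 CPM (log2FC −0.30, SE 0.08), and the ligand gene Dll3 at 109 to 142 and 87.1 to 105 CPM (log2FC −0.38). Con replicate 1 was the highest library in all 3 genes.

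The genes of Wnt feedback were even, with 9 higher and 11 lower of 20 and a median of −0.01. Besides Dkk3, Apcdd1, a Wnt inhibitor, was at 67.1 to 80.7 CPM in the Con and 51.5 to 60.7 CPM in the Exo libraries (log2FC −0.38), and Tcf7l2, the TCF4 transcription factor, at 33.4 to 38.7 and 41.5 to 45.5 CPM (log2FC 0.30). Wnt5a itself was at 20.8, 26.1 and 29.8 CPM against 33.6, 25.6 and 27.8 CPM (log2FC 0.17, SE 0.15). Of 28 BMP and TGF-β genes 20 were higher, with a median of 0.21, or 0.12 without Con replicate 1. Smad1, a transducer of BMP signals, was at 48.8 to 51.9 and 59.3 to 61.0 CPM (log2FC 0.24, SE 0.08, Q = 0.277 by edgeR), and Tgfbr1 at 2.88, 6.21 and 7.67 CPM against 16.3, 11.1 and 6.29 CPM, which overlap.

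Of 45 matrix and collagen genes 28 were lower, with a median of −0.08, and −0.15 without Con replicate 1 and −0.04 without Exo replicate 2. Col4a6, a basement membrane collagen, was at 12.1, 12.3 and 12.4 CPM in the Con and 8.11, 8.46 and 8.38 CPM in the Exo replicates (log2FC −0.57, SE 0.13, Q = 0.265 by edgeR). Lama5, a laminin chain, was at 82.6 to 101 and 59.7 to 75.9 CPM (log2FC −0.41), and the tenascin gene Tnc at 270 to 298 and 223 to 253 CPM (log2FC −0.27). Pdgfrb, a receptor of pericytes and fibroblasts, was at 20.1, 14.1 and 17.3 CPM against 9.87, 10.7 and 10.5 CPM (log2FC −0.74, SE 0.15), whereas the fibrillar collagen gene Col3a1 was higher, at 2.36 to 3.17 and 3.49 to 4.12 CPM (log2FC 0.46, SE 0.21, and 0.57 without Con replicate 1). The 22 tested genes of the mesenchymal and fibroblast list summed to 377 to 439 CPM in the Con and 364 to 407 CPM in the Exo libraries, with at most 4 counts of Lum, and the endothelial gene Cdh5 had at most 1 count in any of the 6 libraries. Of 26 exosome and tetraspanin genes 12 were higher and 14 lower, with a median of −0.02. Cd63 was at 392 to 518 and 351 to 372 CPM (log2FC −0.32, and −0.19 without Con replicate 1), and Cd9 at 103 to 111 and 105 to 150 CPM. Canx, the calnexin gene, was higher, at 98.6 to 163 and 171 to 220 CPM (log2FC 0.51, and 0.33 without Con replicate 1). Rab11a was also higher (log2FC 0.56, and 0.41 without it).

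All 78 tested genes of cytosolic ribosomal proteins were lower in the Exo group, with a median log2FC of −0.19 and 0 at the looser limits, and 65 of them had no Exo library reaching a Con library, against 12.4% of all genes. Their median deviation was 0.27 in Con replicate 1 and 0.03 and −0.02 in the other Con libraries, against −0.12, −0.08 and −0.07 in the Exo libraries. Without Con replicate 1 the 78 were still lower, with a median of −0.10. Of 74 nuclear genes of oxidative phosphorylation 65 were lower, with a median of −0.10, or −0.04 without that library. Of 12 mitochondrially encoded genes 11 were higher, with a median of 0.28, which by library ran from −0.30 in Con replicate 1 to 0.43 in Exo replicate 1. The median was 0.17 without the former and 0.07 without the latter.

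The list medians plotted together show which lists rested on Con replicate 1. Leaving it out took the receptor median from 0.32 to 0.17, the reactive astrocyte median from −0.21 to −0.10 and the NF-κB target median from −0.18 to −0.06. The microglia median was further from 0 without it.

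**Figure D5:**
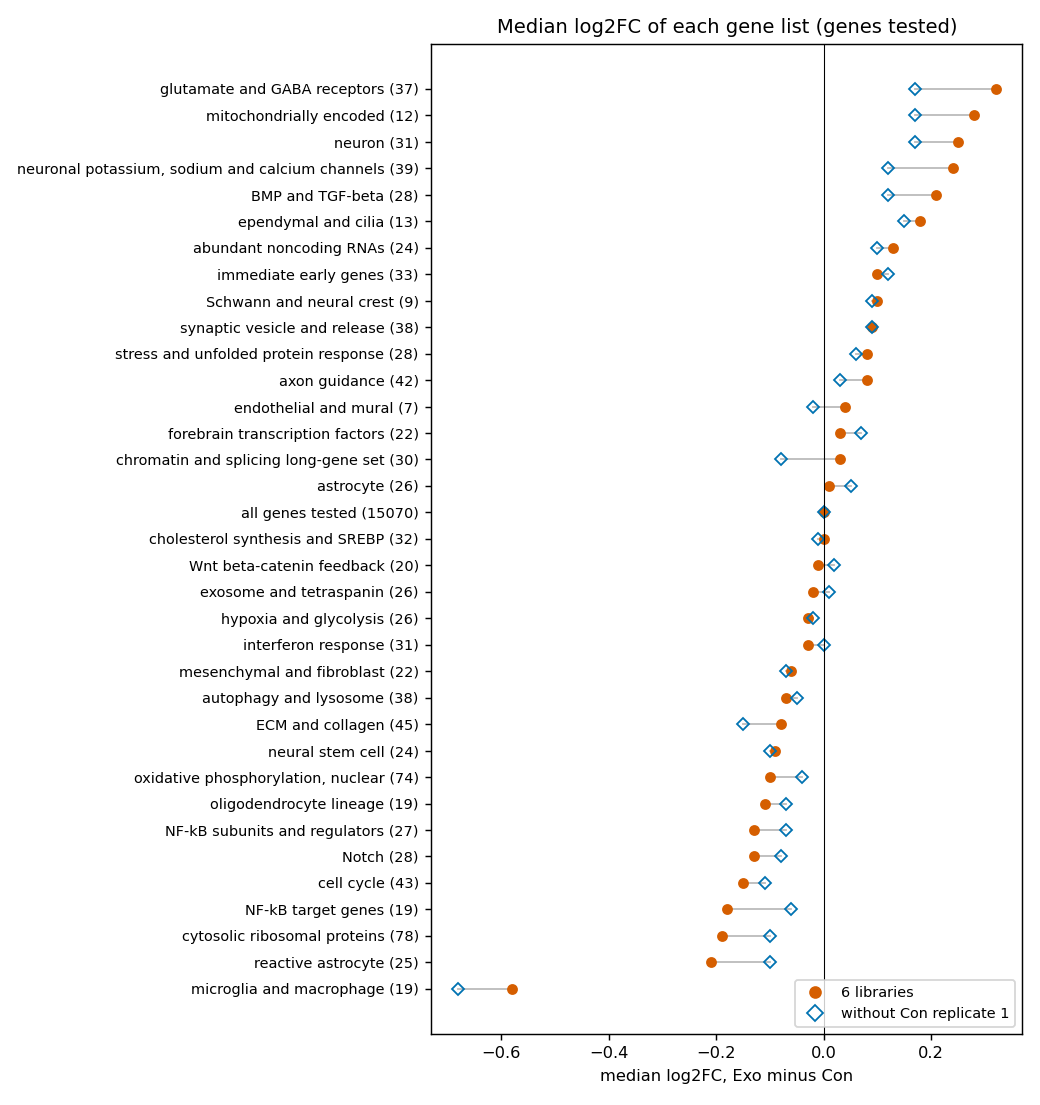
Median log2FC (x axis, Exo minus Con) of the tested genes of each list, with the number of genes in brackets, from the 6 libraries (orange circles) and without Con replicate 1 (blue diamonds). The microglia list is at −0.58 and −0.68, and the receptor, neuron and channel lists are at 0.32, 0.25 and 0.24, and at 0.17, 0.17 and 0.12 without that library.

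Among the pathways of the deposited annotation with at least 20 tested genes (284 of 343), Nicotine addiction, GABAergic synapse and Morphine addiction had the highest medians, of 0.34, 0.18 and 0.16, or 0.16, 0.11 and 0.09 without Con replicate 1, and share receptor genes. In GABAergic synapse 54 of 74 genes were higher and in Glutamatergic synapse 70 of 102 (median 0.14), with 6 genes of each higher (3.56% of all genes) and 0 lower at the looser limits. There were 1 such gene in the former and 2 in the latter without Con replicate 1 (1.57% of all genes). The lowest medians were those of Staphylococcus aureus infection (−0.37, 18 of 22 lower), Type I diabetes mellitus (−0.18) and Complement and coagulation cascades (−0.18, 21 of 32 lower, 4 at the looser limits, against 0.909% of all genes). These 3 medians were −0.30, 0.05 and −0.02 without Con replicate 1, so that of Type I diabetes mellitus changed sign. The C1q genes belong to the complement and Staphylococcus pathways. In Ribosome 120 of 132 genes were lower (median −0.16, or −0.09 without Con replicate 1). NF-kappa B signaling pathway was even, with 33 genes higher and 41 lower and a median of −0.04, and so were TNF signaling pathway (0.02), Cell cycle (0.00) and Wnt signaling pathway (0.03).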

How the data were processed

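RNA-seq libraries of the Con and Exo groups (n = 3 each) were compared. The values deposited by the authors are unnormalized counts (whole numbers). The study's methods name HISAT2, the submitters' processing notes list Bowtie2, RSEM 1.3.1 and DESeq2 1.4.5, and the genome build and annotation are not given in the sources used here. Groups and replicate numbers came from the labels, and columns were matched by library name. The low-count filter was filterByExpr, scaling was by TMM, and p-values came from quasi-likelihood fits in edgeR 4.0.16 (R 4.3.3), with Benjamini-Hochberg adjustment (Q). CPM values were normalized by TMM over all 9 libraries, and log2FC came from the 6-library fit. Standard errors were taken from the test statistic. DESeq2 1.42.0 and limma 3.58.1 served as alternatives. The steps were tested on simulated data.

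The gene lists (35) and pathways (39) were described by counts and medians only. The comparison, the lists and their members were chosen with earlier results of these data known. The rule for names took up to 12 genes per direction with the smallest unadjusted p under 0.05, an absolute log2FC above 1, no overlap between groups and a mean of at least 1 CPM, up to 4 per list by p, genes past Q and fold limits, and markers the study measured. Other microglia genes and the genes called without Con replicate 1 were named after their values were seen. No gene coordinates or lengths are in the count table, so levels are not compared between genes. A few single genes are left unreported.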

Additional observations from a re-analysis of the deposited data

How the results depend on the processing

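The count of genes past Q and fold limits was 1 with RLE and upper quartile normalization and with at least 10 counts in each library. It was 32 with DESeq2 on the 6 libraries and 40 on all 9, which took 23056 and 23952 genes without the low-count filter, so that tool and filter changed together there. It was 50 in edgeR with no filter on low counts, 46 with limma voom and sample quality weights, 2 with edgeR on all 9 libraries, and 169 with an unadjusted p in place of Q. Leaving out 1 library gave 0 to 138 (138 without Con replicate 3, 2 without Con replicate 1, 0 without Exo replicate 1 or 3). At the looser limits 1032 genes were called with no filter, and 354 to 1428 when 1 library was left out (354 without Con replicate 1, 425 without Exo replicate 1, 1428 without Con replicate 3). The cause was not tested.

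Same-numbered Con and Exo libraries did not deviate together (correlations of −0.228 to 0.0168 over the 3 numbers), so the numbers were not taken to pair them. With the replicate block 0 genes passed Q and fold limits and 584 the looser limits.

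The microglia median was −0.71 with limma voom, −0.52 with at least 10 counts in each library and −0.68 to −0.51 when 1 library was left out. Con replicate 1 had 1.28 times the mean distance of the other libraries, 1.55 times by a variance stabilizing transformation and 1.17 times on the 500 most variable genes. A log2FC near 0 turned sign in Rbfox3 (−0.03 to 0.07 when 1 library was left out), Tubb3 (−0.08 to 0.08, and 0.08 with limma voom) and Aif1 (−0.25 to 0.28, and 0.04 with limma voom). Genes under about 0.0916 CPM could not be measured at this depth.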

Other observations

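Further lists were written for this comparison, with medians from −0.07 to 0.18, and the range after each median is the range when 1 library was left out. Of 33 immediate early genes, which neuronal activity induces, 22 were higher and 0 met the looser limits (median log2FC 0.10, 0.04 without Exo replicate 1 to 0.13). Of 28 stress and unfolded protein response genes 19 were higher (median 0.08, 0.06 to 0.12). Of 42 axon guidance genes 26 were higher (median 0.08, 0.03 without Con replicate 1 to 0.17 without Con replicate 3). Of 13 ependymal and cilia genes 7 were higher (median 0.18, 0.04 without Exo replicate 2 to 0.25), and their median was 0.02 with limma voom and −0.02 with at least 10 counts in each library. The 32 genes of cholesterol synthesis divided into 15 higher and 17 lower (median 0.00, −0.03 to 0.05), the 26 of hypoxia and glycolysis into 11 and 15 (−0.03, −0.08 without Con replicate 3 to 0.00) and the 38 of autophagy and lysosome into 15 and 23 (−0.07, −0.11 without Con replicate 3 to −0.05). Of 22 mesenchymal and fibroblast genes 13 were lower (−0.06, −0.14 without Con replicate 3 to −0.07). Of 9 Schwann and neural crest genes 6 were higher (0.10, 0.07 to 0.30 without Exo replicate 3). Of 7 endothelial and mural genes 4 were higher (0.04, −0.24 without Exo replicate 1 to 0.14 without Exo replicate 2). Of 24 abundant noncoding RNAs 18 were higher (0.13, 0.04 without Exo replicate 1 to 0.30 without Exo replicate 3). Of the 22 forebrain transcription factors 13 were higher (0.03, −0.01 without Exo replicate 3 to 0.08).

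COX1, encoded in the mitochondrion, went against the other mitochondrial genes. It was at 3930, 6610 and 7060 CPM in the Con and 4670, 4300 and 5220 CPM in the Exo replicates (log2FC −0.32, SE 0.19, Q = 0.414 by edgeR), and its log2FC was −0.54 with Q = 0.0648 without Con replicate 1. Tnn, the gene of tenascin-N, was at 3.38 to 5.50 CPM in the Con, 2.27 to 2.72 CPM in the Exo and 11.4 to 14.7 CPM in the pLV-Exo-Wnt5a libraries, with no test of the last group here.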
